A study of Mus musculus with 22 samples.

Results

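The matrix metalloproteinases, the ADAMTS proteases and their inhibitors were followed in the lungs of mice kept in normal or low oxygen and given ABT-263 or its vehicle. Members were the protein-coding genes of the deposited table named Mmp or Adamts plus a number, or Timp plus 1 digit. This gave 45 of 54532 genes, namely 22 Mmp, 19 Adamts and 4 Timp genes. Of these, 36 had enough counts to be tested (16 Mmp, 16 Adamts and 4 Timp), among 16638 genes tested in all.

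RNA of whole lungs of young male C57BL6/j mice was sequenced after 8 days. ABT-263 is a senolytic drug that blocks anti-apoptotic proteins of the Bcl2 family, given at 50 mg per kg per day. The 4 groups were normoxia with vehicle (n = 5, the control), normoxia with ABT-263 (n = 6), hypoxia with vehicle (n = 6) and hypoxia with ABT-263 (n = 5), so every mouse received ABT-263 or its vehicle, and no group went without a treatment. The labels name no transgene, and the oxygen level and the route of dosing are not given in the sources used here.

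Matrix metalloproteinases and ADAMTS proteases are zinc enzymes that cut the extracellular matrix, mostly outside the cell. Metalloproteinases act on collagens, elastin, gelatin and many signalling proteins, while ADAMTS proteases cut proteoglycans such as versican, trim procollagens or act on the microfibrils that carry elastin. TIMP proteins bind the active site of these enzymes, and the balance of both sides is studied in lung because remodelling of vessel walls and alveoli depends on matrix turnover.

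The labels of 3 libraries conflict, with 1 treatment in the title and the other in the tag: replicate 1 of normoxia with ABT-263, replicate 1 of hypoxia with vehicle and replicate 1 of hypoxia with ABT-263. Groups follow the titles, and values without these libraries are given where they differ. Nothing in the labels says that each library came from a separate mouse, so the p-values measure the spread between these libraries. Library totals were 11509007 to 15744193 counts. Lung identity was clear from a summed level of 7 alveolar epithelial markers between 30438 and 41712 CPM in all groups (CPM are counts scaled to a common library total). Replicate 4 of hypoxia with ABT-263 stood apart in several members below, and its summed level of 9 fibroblast markers, 2654 CPM, was the highest of all libraries.

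The inhibitors Timp2 and Timp3 were the most abundant members in control lungs once counts were divided by gene length. In normoxia with vehicle, Timp2 stood at 109 ± 12.6 CPM per kb of exon (SD, n = 5), Timp3 at 57.0 ± 8.36 and the membrane-anchored metalloproteinase Mmp15 at 29.1 ± 2.73. All libraries of Timp2 lay above those of Timp3, and all libraries of Timp3 above those of every protease, while the lowest Mmp15 library (26.9) lay just below the highest of Mmp2 (27.0). Below them Adamts10 (19.3 ± 3.33), the gelatinase Mmp2 (19.3 ± 6.16) and the stromelysin Mmp3 (19.1 ± 5.37) overlapped, so their order per length was not resolved. Mmp11 followed at 13.5 ± 1.03, Adamts1 at 10.9 ± 3.6, Mmp14 at 10.2 ± 1.60 and Timp1 at 8.27 ± 1.19 CPM per kb, again with overlapping libraries. Timp1 lay above Mmp23 (6.44 ± 0.316) in every library, and Timp4 was far lower, at 0.671 ± 0.155 CPM per kb. All 4 Timp genes together summed to between 155 and 195 CPM per kb in control libraries, against 97.8 to 126 for the Mmp genes and 42.4 to 55 for the Adamts genes.

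**Figure D1:**
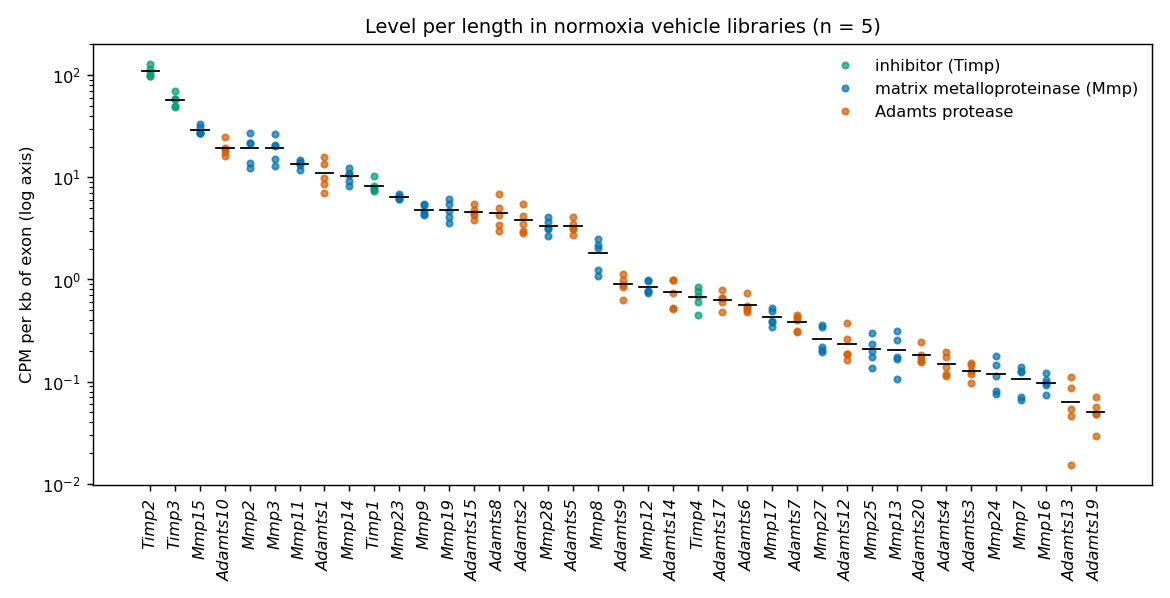
Level per length (CPM per kb of exon, log axis) of the 39 members with counts in every normoxia vehicle library, 1 point per library (n = 5) and a bar at the mean. Timp2 and Timp3 lie above all proteases, and the members span from 109 to 0.0508 CPM per kb.

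Of the 45 members, 9 had too few counts to be tested. Mmp1b, Mmp10 and Mmp20, the last an enzyme of tooth enamel, had 0 counts in all 22 libraries. Adamts16 had 2 counts over all libraries, Mmp21 had 3, Mmp7 had 20 and Adamts18 had 24. Adamts13, which cuts von Willebrand factor, had 111 counts (1 to 15 per library) and Mmp24 had 154 (1 to 16 per library), both in all 22 libraries. At this depth these genes gave no comparison between groups.

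On chromosome 9, 9 members lie within 427 kb (chr9:7272514-7699585, GRCm38), in the order Mmp13, Mmp12, Mmp1b, Mmp3, Mmp10, Mmp8, Mmp27, Mmp20 and Mmp7, and 5 of them were tested. Mmp1a, which the deposited table lists as a polymorphic pseudogene and which is therefore no member, lies between Mmp3 and Mmp10. Their control levels ran from 19.1 ± 5.37 CPM per kb for Mmp3 to 0 for Mmp1b, Mmp10 and Mmp20. Promoter windows of 300 bases (250 before to 50 after the RefSeq start, GRCm38.p6) were read for 31 members with an entry, in 34 windows, and searched on both strands. The AP-1 motif TGACTCA, which on the other strand reads TGAGTCA, was found in 6 of the 34 member windows (17.6%), against 5.2% of all 32851 windows. All 6 belonged to genes of this row, and the windows of the 22 members elsewhere held none. The stretches are shown because the motif is shared by genes at very different levels, with the motif in capitals, and each is written along the gene's own strand. They lie at chr9:7272462-7272502 (Mmp13), chr9:7347313-7347353 (Mmp12), chr9:7388096-7388136 (Mmp1b, minus strand), chr9:7445759-7445799 (Mmp3), chr9:7502262-7502302 (Mmp10) and chr9:7692010-7692050 (Mmp7), on the plus strand except for Mmp1b.
Mmp13: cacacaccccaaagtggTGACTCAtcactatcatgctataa
Mmp12: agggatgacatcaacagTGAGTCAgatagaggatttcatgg
Mmp3: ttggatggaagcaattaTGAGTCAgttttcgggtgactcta
Mmp1b: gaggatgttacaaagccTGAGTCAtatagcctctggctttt
Mmp10: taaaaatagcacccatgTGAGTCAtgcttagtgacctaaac
Mmp7: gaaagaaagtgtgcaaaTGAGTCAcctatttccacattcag
The first motif base lies 35 (Mmp13) to 93 (Mmp1b) bases before the RefSeq start. A match is a description of the letters and not a measured binding site.

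Most of the members that rose in hypoxia with vehicle were Adamts genes, though 10 of the 16 tested Adamts genes did not pass. With vehicle, 7 members rose and 3 fell in hypoxia against normoxia (edgeR quasi-likelihood test, Benjamini-Hochberg adjusted over all genes, threshold 0.05). That was 27.8% of the tested members, near the 26.3% of all tested genes that passed (13.5% higher and 12.8% lower). Adamts1, Adamts4, Adamts9, Adamts12, Adamts17, Mmp23 and Timp1 rose, and Mmp9, Mmp15 and Adamts5 fell. By family, 5 of 16 tested Adamts genes rose and 1 fell, with a median log2 difference of 0.36, while 1 of 16 Mmp genes rose and 2 fell, with a median of 0.06. The median over all tested genes was -0.00. With ABT-263, where other libraries were compared, 15 members rose and 4 fell (52.8%, against 39.2% of all genes tested, 17.9% higher and 21.3% lower). There 9 Adamts genes rose and 2 fell (median 0.74), 4 Mmp genes rose and 2 fell (median 0.18), and the median over all genes was -0.02. In whole lung, fewer cells of a type and less RNA per cell cannot be told apart.

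**Figure D2:**
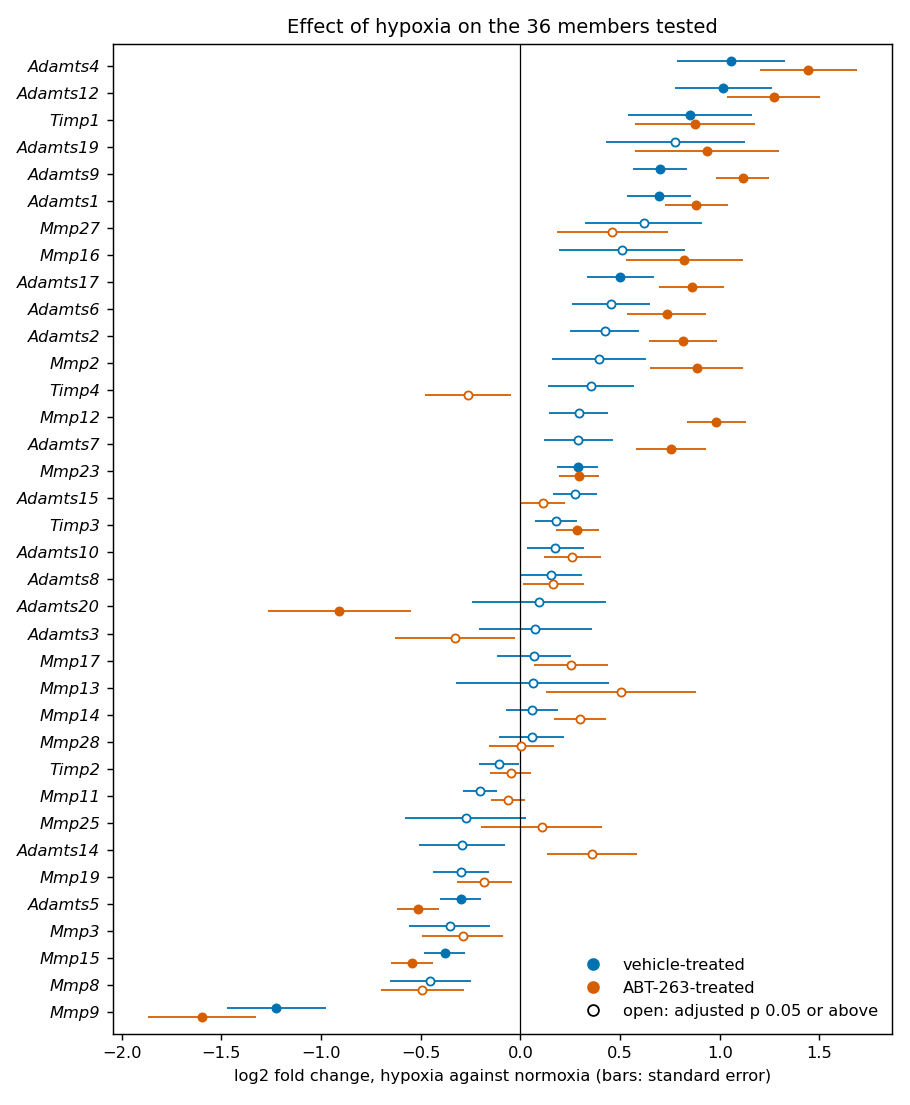
Log2 fold change of hypoxia against normoxia (x axis, bars are standard errors) for the 36 tested members, in vehicle-treated (blue) and ABT-263-treated (orange) mice, with open points where the adjusted p was 0.05 or above. Adamts4 and Adamts12 are at the top (1.06 and 1.02 with vehicle) and Mmp9 is at the bottom (-1.23 with vehicle and -1.60 with ABT-263).

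All 10 members that passed with vehicle also passed in the same direction with ABT-263, in libraries not shared between the comparisons, and the size was larger with ABT-263 for all 10. Of the 4380 genes of the whole table that passed with vehicle, 77.6% also passed in the same direction with ABT-263, and 51% had the larger size there. The difference between both hypoxia effects passed for none of them, as given below. A further 9 members passed with ABT-263 alone. Over the 36 tested members, 31 had the same sign in both comparisons (86.1%, against 79.6% of all genes tested). The libraries of the groups did not overlap for 4 members with vehicle and for 11 with ABT-263, where 14% and 17.6% of all genes did not overlap.

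Of the 7 genes that rose with vehicle, 6 have a RefSeq promoter window. The letters ACGTG or GCGTG, the core to which hypoxia-inducible factors bind, stood on either strand in the windows of 5 of them: Adamts1, Adamts9, Adamts12, Adamts17 and Timp1. The window of Mmp23 held neither. Among all 27025 genes 46.7% had such a window, and among the 16 members with a window that did not pass 8 did. The stretches around the matches are shown along each gene's own strand, with the core in capitals. They lie at chr16:85803242-85803296 (Adamts1, minus strand), chr6:92943549-92943603 (Adamts9, minus strand), chr15:11064523-11064576 (Adamts12), chr7:66839537-66839624 (Adamts17) and chrX:20869935-20870113 (Timp1), the last 3 on the plus strand.
Adamts1: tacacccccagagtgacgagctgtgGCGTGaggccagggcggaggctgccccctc
Adamts9: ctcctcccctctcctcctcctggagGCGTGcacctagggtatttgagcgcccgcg
Adamts12: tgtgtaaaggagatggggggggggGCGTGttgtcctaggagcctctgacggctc
Adamts17: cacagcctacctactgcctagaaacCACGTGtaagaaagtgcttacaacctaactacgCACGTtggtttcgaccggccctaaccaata
Timp1: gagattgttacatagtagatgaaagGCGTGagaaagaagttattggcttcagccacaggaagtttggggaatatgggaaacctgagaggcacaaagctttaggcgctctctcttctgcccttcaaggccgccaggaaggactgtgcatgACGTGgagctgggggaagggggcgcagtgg
In Adamts17 the letters CACGTG hold the core on both strands and CACGT holds it on the other strand. The core is common among promoters, and the files hold no binding data.

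Among the proteoglycan-cutting ADAMTS genes, Adamts9 changed with the smallest p of all members. Adamts9 (ENSMUSG00000030022, chr6:92772699-92943492, minus strand) encodes an enzyme that cuts versican and aggrecan. Its level in normoxia with vehicle was 9.52, 16.9, 12.6, 14.9 and 13.3 CPM in the 5 libraries, and in hypoxia with vehicle the lowest, median and highest of 6 libraries were 17.7, 23.1 and 23.4 CPM. The groups did not overlap, and the log2 fold change was 0.70 ± 0.14 (SE, edgeR adjusted p = 0.000526). Under ABT-263 the normoxia libraries lay at 10.2, 12.4 and 17.4 CPM (lowest, median, highest) and the hypoxia libraries at 28.4, 28.1, 23.6, 29.0 and 36.1 CPM. These groups were also apart, with a log2 fold change of 1.12 ± 0.13 (edgeR adjusted p = 7.85e-07). The order normoxia, hypoxia with vehicle, hypoxia with ABT-263 held without overlap between the last 2 groups, whose difference of 0.41 ± 0.13 had an edgeR adjusted p of 0.165.

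Adamts1 (ENSMUSG00000022893, chr16:85793827-85803113, minus strand), also cuts versican and aggrecan. Control libraries held 36.8, 52.7, 45.9, 70.8 and 83.8 CPM and hypoxia vehicle libraries 79.0, 95.4 and 105 CPM (lowest, median, highest). Only control replicate 5 reached into the hypoxia range, and the log2 fold change was 0.70 ± 0.16 (edgeR adjusted p = 0.00293). With ABT-263, normoxia libraries held 39.9, 53.7 and 65.4 CPM and hypoxia libraries 103, 87.1, 91.7, 91.2 and 123 CPM, a log2 fold change of 0.88 ± 0.16 without overlap (edgeR adjusted p = 0.000173).

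Adamts4 (ENSMUSG00000006403, chr1:171250421-171260637, plus strand), an aggrecanase, had the largest log2 rise of any member with vehicle. Control libraries held 0.548, 0.674, 0.571, 0.835 and 0.928 CPM, and hypoxia vehicle libraries 0.987, 1.38 and 2.14 CPM (lowest, median, highest). No library of one group lay within the other, and the log2 fold change was 1.06 ± 0.27 (edgeR adjusted p = 0.00569). With ABT-263 the normoxia libraries lay at 0.690, 0.974 and 1.55 CPM and the hypoxia libraries at 3.10, 2.0, 2.05, 4.10 and 2.40 CPM, a log2 fold change of 1.44 ± 0.24 (edgeR adjusted p = 5.81e-05). The strand setting of the counting is not given in the sources used here, so for members that overlap a gene on the opposite strand, such as Adamts9, a part of the counts could belong to the partner.

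Adamts5 moved against its neighbour Adamts1. Adamts5 (ENSMUSG00000022894, chr16:85856173-85901828, minus strand) encodes the other main aggrecanase and lies 53059 bases from Adamts1 on the same strand. Its control libraries held 34.1, 33.9, 37.9, 29.2 and 44.2 CPM, the hypoxia vehicle libraries 25.9, 29.0 and 34.9 CPM (lowest, median, highest). The ranges overlapped, and the log2 fold change was -0.30 ± 0.10 (edgeR adjusted p = 0.0356). Leaving out control replicate 3 or 5 or hypoxia vehicle replicate 1, 3, 5 or 6 gave edgeR adjusted p-values of 0.0540 to 0.150, with log2 fold changes of -0.30 to -0.21. With ABT-263 the fall was larger and free of overlap: normoxia libraries held 26.3, 34.1 and 41.6 CPM and hypoxia libraries 22.5, 22.3, 25, 24.0 and 24.9 CPM (log2 fold change -0.51 ± 0.11, edgeR adjusted p = 0.000541).

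The ratio of both genes was also taken per library, and a rise of Adamts1 alone would raise it too. Adamts1 over Adamts5, each in CPM per kb, was 2.20 to 4.93 in normoxia with vehicle (median 3.16) and 2.85 to 3.89 in normoxia with ABT-263 (median 3.18). It was 5.31 to 7.32 in hypoxia with vehicle (median 6.84) and 7.48 to 10 in hypoxia with ABT-263 (median 7.94). No hypoxia library fell into the range of the normoxia libraries, and both hypoxia groups were apart from each other. The pair was chosen after its values were seen, so the ratio is a description without a test. Another adjacent pair, Adamts8 and Adamts15, lies 20109 bases apart on opposite strands of chromosome 9, and neither gene passed in hypoxia with vehicle (0.15 ± 0.15 and 0.27 ± 0.11 on the log2 scale, edgeR adjusted p = 0.501 and 0.0701).

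**Figure D3:**
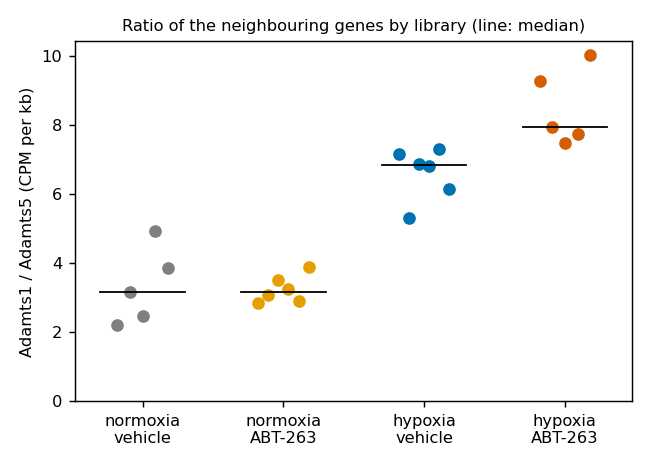
Ratio of Adamts1 to Adamts5 (each in CPM per kb of exon) in every library of the 4 groups, 1 point per library and a line at the median. All hypoxia libraries lie at 5.31 or higher and all normoxia libraries at 4.93 or lower.

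Of the ADAMTS enzymes that cut cartilage oligomeric matrix protein, Adamts12 rose in both treatments and Adamts7 passed with ABT-263. Adamts12 (ENSMUSG00000047497, chr15:11064790-11349231, plus strand) held 1.78, 4.05, 2.86, 2.05 and 2.05 CPM in control libraries and 3.32, 5.23 and 6.57 CPM (lowest, median, highest) in hypoxia with vehicle. Only control replicate 2 lay within the hypoxia range, and the log2 fold change was 1.02 ± 0.24 (edgeR adjusted p = 0.00326). With ABT-263, 2.14, 2.94 and 3.53 CPM in normoxia compared with 6.85, 4.61, 4.91, 11.6 and 6.86 CPM in hypoxia (log2 fold change 1.27 ± 0.23, edgeR adjusted p = 0.000154), without overlap and with replicate 4 highest. Adamts7 lay at 1.92 to 2.81 CPM in controls and at 2.32 to 3.39 CPM in hypoxia with vehicle (0.29 ± 0.17 on the log2 scale, edgeR adjusted p = 0.224). With ABT-263 its log2 fold change was 0.76 ± 0.18 (edgeR adjusted p = 0.00153), and part of that contrast lay in the normoxia ABT-263 libraries, which at 1.45 to 1.89 CPM were all below the controls.

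Of the procollagen-trimming enzymes, Adamts2 passed with ABT-263 alone. Adamts2, the main procollagen N-proteinase, held 27.9, 51.6, 26.4, 32.4 and 39.4 CPM in controls and 41.5, 44.9 and 58.8 CPM (lowest, median, highest) in hypoxia with vehicle, a log2 difference of 0.42 ± 0.17 that did not pass (edgeR adjusted p = 0.0736). With ABT-263 it rose by 0.82 ± 0.17 on the log2 scale (edgeR adjusted p = 0.000757), from 27.0 to 39.6 CPM in normoxia to 57.3, 45.3, 43.7, 83.1 and 51.5 CPM in hypoxia, with no overlap and replicate 4 highest. Adamts3 and Adamts14, of the same group, passed in neither hypoxia comparison (edgeR adjusted p = 0.890 and 0.339 with vehicle, 0.407 and 0.215 with ABT-263).

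Of the ADAMTS genes tied to fibrillin microfibrils, Adamts17 rose in both treatments. Its control libraries held 5.07, 6.14, 3.71, 4.63 and 5.10 CPM and its hypoxia vehicle libraries 4.48, 7.36 and 8.04 CPM (lowest, median, highest). Hypoxia vehicle replicate 6, at 4.48 CPM, was the only one of its group within the control range, and the log2 fold change was 0.50 ± 0.17 (edgeR adjusted p = 0.0276). The call was lost without control replicate 3 or 4 or hypoxia vehicle replicate 1 or 4 (log2 fold changes 0.42 to 0.48, edgeR adjusted p = 0.0512 to 0.0802) and without the 3 libraries with conflicting labels (0.46, 0.0683). With ABT-263 the hypoxia libraries held 8.58, 7.21, 10.5, 9.34 and 10.1 CPM, all above the normoxia range of 2.97 to 6.0 (log2 fold change 0.86 ± 0.16, edgeR adjusted p = 0.000214). Adamts6 passed with ABT-263 (0.73 ± 0.20, edgeR adjusted p = 0.00508), and with vehicle its log2 difference was 0.45 ± 0.19 (edgeR adjusted p = 0.0860). Adamts10, at 113 to 243 CPM over all groups, passed in neither (edgeR adjusted p = 0.391 and 0.150).

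Adamts19 and Adamts20 passed with ABT-263 alone and close to the threshold. Adamts19 had a log2 fold change of 0.94 ± 0.36 (edgeR adjusted p = 0.0415), and Adamts20, a relative of Adamts9, had -0.91 ± 0.36 (edgeR adjusted p = 0.0459). Adamts19 lost its call without any of 7 single libraries (replicates 1, 2 and 6 of normoxia and 1 to 4 of hypoxia, both with ABT-263; edgeR adjusted p = 0.0531 to 0.0889). Adamts20 lost it in 14 of 22 single omissions (edgeR adjusted p = 0.0501 to 0.149), and 4 of its 5 hypoxia ABT-263 libraries lay at 0.695 to 0.865 CPM with replicate 3 at 2.13 CPM. Neither passed without the 3 libraries with conflicting labels (0.81 ± 0.42 and -0.91 ± 0.41, edgeR adjusted p = 0.138 and 0.0913) or with treatment read from the tag (0.87 and -0.74, edgeR adjusted p = 0.0786 and 0.137). Without normoxia ABT-263 replicates 2 and 6, Adamts19 stood at 0.63 (edgeR adjusted p = 0.180).

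Summed per length, the Adamts genes gave a higher total in every hypoxia library than in every normoxia library. The sum over the 19 genes was 42.4 to 55 CPM per kb in normoxia with vehicle and 43.1 to 51.3 in normoxia with ABT-263, against 56.2 to 75.2 in hypoxia with vehicle and 57.2 to 69.1 in hypoxia with ABT-263. Mmp sums overlapped among all 4 groups (97.8 to 126, 97.7 to 129, 95.4 to 113 and 104 to 156 CPM per kb in the same order). Adamts10 and Adamts1 had the highest means in the Adamts sum, so it does not speak for all 19 genes. With vehicle the mean Adamts sum went from 50.5 in normoxia to 63.3 CPM per kb in hypoxia. Adamts1 went from 10.9 to 17.7 CPM per kb, and Adamts10, which did not pass, from 19.3 to 21.8. The marker counts that follow are to be read against all genes tested. Of those, 13.5% rose and 12.8% fell with vehicle, and 17.9% rose and 21.3% fell with ABT-263. Of 7 pericyte markers 5 rose with vehicle, and their sum was 166 to 196 CPM in controls and 300 to 338 CPM in hypoxia with vehicle. With ABT-263, 6 rose (sum 165 to 194 against 281 to 343 CPM). Of 7 smooth muscle markers 4 rose with vehicle (sum 885 to 1212 against 1363 to 1912 CPM). With ABT-263, 1 of them rose and 1 fell, with a median log2 difference of -0.10 and overlapping sums (947 to 1292 against 1274 to 1557 CPM). Of 9 fibroblast markers 2 rose with vehicle (sum 1237 to 1671 against 1742 to 1872 CPM). With ABT-263, 4 of these rose (sum 1304 to 1807 against 1746 to 2654 CPM). No marker of these lists was at 0 in all libraries, and the part of these cells in the Adamts levels was not tested.

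**Figure D4:**
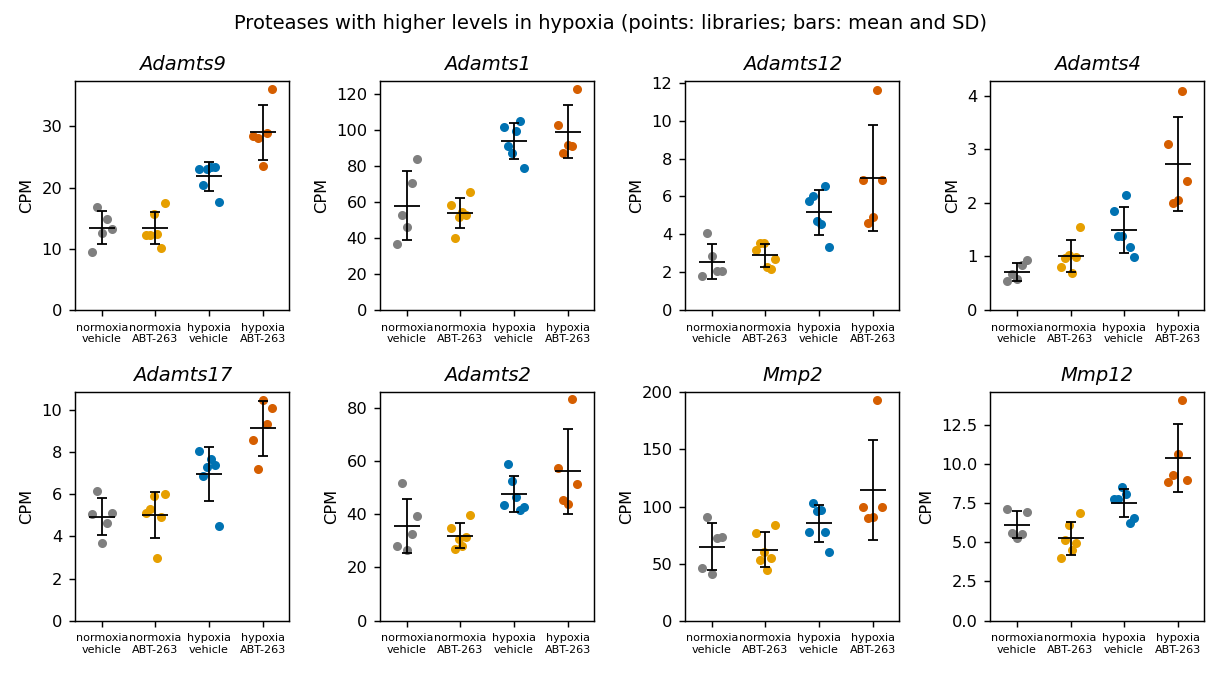
Level (CPM) of 8 proteases in every library of the 4 groups, with the mean and SD of each group as bars. Adamts9 is at 17.7 CPM or more in every hypoxia library and at 17.4 or less in every normoxia library, and Mmp2 reaches 193 CPM in 1 library of hypoxia with ABT-263.

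Of the gelatinases, Mmp9 fell in hypoxia in both treatments, while the rise of Mmp2 passed with ABT-263 alone. The difference between both hypoxia effects passed for neither gene. It was -0.37 ± 0.37 on the log2 scale for Mmp9 and 0.49 ± 0.33 for Mmp2 (edgeR adjusted p = 0.815 and 0.700). Mmp9 (ENSMUSG00000017737, chr2:164940780-164955850, plus strand), a gelatinase abundant in neutrophils, held 15.0, 19.3, 15.6, 19.0 and 16.4 CPM in controls and 5.12, 5.76 and 14.9 CPM (lowest, median, highest) in hypoxia with vehicle. Hypoxia vehicle replicate 1, a library with conflicting labels, was the 1 high value, while the other 5 lay at 5.12 to 6.74 CPM, and all 6 were below the controls. Mmp9 fell by 1.23 on the log2 scale (SE 0.25, edgeR adjusted p = 0.00101), and without that library by 1.56 (SE 0.19, edgeR adjusted p = 3.3e-06). With ABT-263, normoxia libraries held 8.96, 13.1 and 17.5 CPM and hypoxia libraries 4.90, 4.95, 3.27, 5.73 and 2.40 CPM, again apart (log2 fold change -1.60 ± 0.27, edgeR adjusted p = 9.53e-05). With treatment read from the tag in place of the title this value was -0.98 ± 0.31 (edgeR adjusted p = 0.0200).

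Beside Mmp9, the markers of neutrophils differed among themselves with vehicle. Of 8 tested neutrophil markers 2 fell with vehicle, the receptors Csf3r (-1.31 ± 0.23) and Cxcr2 (-1.28 ± 0.19 on the log2 scale), and Ltf rose (1.98 ± 0.53). With ABT-263, 3 of the 8 fell and 0 rose. Among all genes tested, 12.8% fell and 13.5% rose with vehicle, and 21.3% fell and 17.9% rose with ABT-263. The median log2 difference over the 8 was -0.69 with vehicle and -0.65 with ABT-263. Csf3r lay at 23.7 to 44.2 CPM in controls and at 9.27 to 20.5 CPM in hypoxia with vehicle, with its highest value of 20.5 in the same replicate 1 that was high in Mmp9. The summed level of the 9 markers overlapped between groups, at 231 to 381 CPM in normoxia with vehicle, 147 to 572 in normoxia with ABT-263, 207 to 418 in hypoxia with vehicle and 132 to 325 in hypoxia with ABT-263. Ly6g was at or near 0 in all groups (at most 0.472 CPM). Their part in the Mmp9 result was not tested. Mmp8, the neutrophil collagenase, lay at 2.62 to 6.03 CPM in controls and 2.56 to 3.91 CPM in hypoxia with vehicle, a log2 difference of -0.45 ± 0.20 that did not pass (edgeR adjusted p = 0.106), and Mmp25, a membrane protease of leukocytes, differed by -0.27 ± 0.30 (edgeR adjusted p = 0.544).

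Mmp2 (ENSMUSG00000031740, chr8:92827291-92853420, plus strand), the gelatinase of mesenchymal cells, held 46.5, 91.2, 41.1, 72.2 and 73.7 CPM in controls and 60.3, 87.0 and 103 CPM (lowest, median, highest) in hypoxia with vehicle. These groups overlapped, and the log2 difference of 0.39 ± 0.23 did not pass (edgeR adjusted p = 0.232). With ABT-263, 44.5, 57.3 and 84.2 CPM in normoxia compared with 100, 90.1, 91.1, 193 and 99.4 CPM in hypoxia. Mmp2 rose there by 0.88 ± 0.23 on the log2 scale (edgeR adjusted p = 0.00537), and without the high replicate 4 by 0.63 ± 0.20 (edgeR adjusted p = 0.0190). As ratios per length within a library, Mmp2 over Mmp9 was 2.77 to 4.95 in normoxia with vehicle, 3.17 to 6.65 in normoxia with ABT-263, 5.48 to 19.0 in hypoxia with vehicle and 19.1 to 43.6 in hypoxia with ABT-263, a description chosen after the values were seen.

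Mmp12, the macrophage elastase, passed in hypoxia with ABT-263 alone. The difference between both hypoxia effects did not pass (0.69 ± 0.21 on the log2 scale, edgeR adjusted p = 0.316). Mmp12 (ENSMUSG00000049723, chr9:7344381-7369499, plus strand) held 7.13, 5.62, 5.29, 5.54 and 6.96 CPM in controls and 6.22, 7.77 and 8.55 CPM (lowest, median, highest) in hypoxia with vehicle, a log2 difference of 0.29 ± 0.15 (edgeR adjusted p = 0.148). With ABT-263 the normoxia libraries lay at 3.99, 5.03 and 6.87 CPM and the hypoxia libraries at 8.87, 9.30, 10.6, 14.1 and 9.0 CPM. All hypoxia libraries with ABT-263 were above all others, and the log2 fold change was 0.98 ± 0.15 (edgeR adjusted p = 1.3e-05). Of 8 alveolar macrophage markers 5 rose with vehicle and 7 with ABT-263, where 13.5% and 17.9% of all genes tested rose. The summed level of these markers was 189 to 340 CPM in controls, 214 to 368 in normoxia with ABT-263, 424 to 618 in hypoxia with vehicle and 462 to 597 in hypoxia with ABT-263. For ABT-263 against vehicle in hypoxia, 0 of these 8 markers passed, with a median log2 difference of -0.0071. Among them, Marco lay at 4.94 to 10.6 CPM in hypoxia with vehicle and at 11.6 to 24.3 CPM in hypoxia with ABT-263, without overlap. Chil3 overlapped, at 304 to 483 and 326 to 431 CPM. Of all genes tested, 1.98% did not overlap in this comparison. The part of macrophages in the Mmp12 level was not tested.

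Among membrane-type metalloproteinases, Mmp15 fell in both treatments. Mmp15 (ENSMUSG00000031790, chr8:95352268-95375080, plus strand) held 146, 167, 145, 148 and 178 CPM in controls and 105, 115 and 142 CPM (lowest, median, highest) in hypoxia with vehicle, with no overlap and a log2 fold change of -0.38 ± 0.10 (edgeR adjusted p = 0.00813). With ABT-263 the normoxia libraries lay at 128, 186 and 194 CPM and the hypoxia libraries at 120, 106, 111, 144 and 119 CPM, of which only the 144 CPM of replicate 4 reached into the normoxia range (-0.54 ± 0.10, edgeR adjusted p = 0.000218). Mmp14, which activates pro-Mmp2 at the cell surface, differed by 0.06 ± 0.13 with vehicle (edgeR adjusted p = 0.784) and by 0.30 ± 0.13 with ABT-263 (edgeR adjusted p = 0.0713). Mmp16 passed with ABT-263 (0.82 ± 0.29, edgeR adjusted p = 0.0278) from levels of 0.950 to 1.15 CPM, but not without replicate 4 (0.56 ± 0.30, edgeR adjusted p = 0.137), with treatment read from the tag (0.61, 0.173) or without normoxia ABT-263 replicates 2 and 6 (0.84, 0.0508). Mmp17 passed in neither (edgeR adjusted p = 0.823 and 0.288).

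The median of the endothelial markers moved in the same direction as Mmp15. Of 10 such markers 6 fell and 1 rose with vehicle, and their sum was 2732 to 3501 CPM in controls and 1885 to 2365 CPM in hypoxia with vehicle, and none was at 0 in all libraries. With ABT-263, 5 fell and 2 rose, and the sum overlapped, at 2392 to 3636 CPM in normoxia and 2157 to 2586 CPM in hypoxia. Among all genes tested, 12.8% fell and 13.5% rose with vehicle, and 21.3% fell and 17.9% rose with ABT-263. The median log2 difference of the 10 was -0.45 with vehicle and -0.27 with ABT-263, while Mmp15 stood at -0.38 and -0.54. Endothelium was not the only list with a negative median with vehicle, as neutrophil (-0.69) and mast cell markers (-0.16) show. The mast cell sum was 94.9 to 137 CPM in controls and 48.2 to 76.2 CPM in hypoxia with vehicle. Medians of other lists were positive, such as those of pericyte (0.56) and alveolar macrophage markers (0.57). The part of any of these cells in the Mmp15 level was not tested.

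Of the other metalloproteinases, Mmp23 passed in both comparisons. Mmp23, an atypical membrane-bound member, held 16.2, 14.5, 14.9, 15.3 and 14.4 CPM in controls and 14.8, 18.2 and 21.9 CPM (lowest, median, highest) in hypoxia with vehicle, with overlap (log2 fold change 0.29 ± 0.10, edgeR adjusted p = 0.0410). Its call was lost without any one of 4 controls (replicates 2 to 5) or 4 hypoxia vehicle libraries (replicates 3 to 6), with edgeR adjusted p-values of 0.0527 to 0.0957. With ABT-263 its log2 fold change was 0.29 ± 0.10 (edgeR adjusted p = 0.0247), and the call was lost without normoxia ABT-263 replicate 3 or hypoxia ABT-263 replicate 4 (edgeR adjusted p = 0.0559 and 0.0923) and with treatment read from the tag (0.22, 0.127). The stromelysins Mmp3 (-0.36 ± 0.20) and Mmp11 (-0.20 ± 0.08) and the basement membrane protease Mmp19 (-0.30 ± 0.14) did not pass with vehicle (edgeR adjusted p = 0.213, 0.0776 and 0.116). Mmp13, a collagenase, Mmp27 and Mmp28 did not pass in either hypoxia comparison either. Over all members that did not pass, log2 differences ran from -0.45 (Mmp8) to 0.78 (Adamts19) with vehicle.

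**Figure D5:**
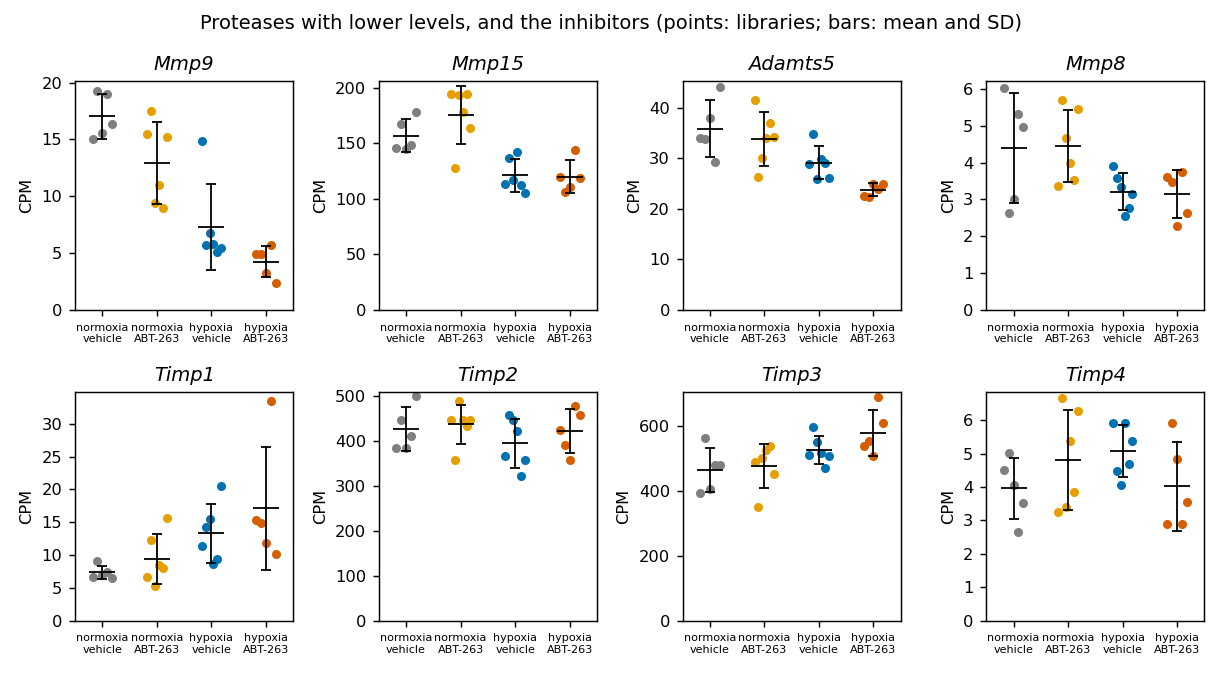
Level (CPM) of 4 proteases with lower means in hypoxia and of the 4 inhibitors in every library of the 4 groups, with the mean and SD of each group as bars. Mmp9 lies at 15.0 CPM or more in the control libraries and at 5.73 or less in hypoxia with ABT-263, while Timp2 overlaps among all groups.

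Of the 4 inhibitors, Timp1 alone passed in both hypoxia comparisons, each time near the threshold. Timp1 (ENSMUSG00000001131, chrX:20870166-20874735, plus strand), the inducible inhibitor, held 6.65, 9.14, 7.0, 7.36 and 6.56 CPM in controls and 8.69, 12.8 and 20.5 CPM (lowest, median, highest) in hypoxia with vehicle. Only control replicate 2 lay within the hypoxia range, and the log2 fold change was 0.85 ± 0.31 (edgeR adjusted p = 0.0496). Without 1 library at a time, 15 of 22 fits lost the call, all 5 that omitted a control among them (log2 fold changes 0.69 to 0.94, edgeR adjusted p = 0.0512 to 0.112), as did the fit without the 3 libraries with conflicting labels (0.90 ± 0.34, 0.0664). With ABT-263, 5.30, 8.20 and 15.6 CPM in normoxia compared with 15.3, 14.9, 11.8, 33.5 and 10.2 CPM in hypoxia (0.88 ± 0.30, edgeR adjusted p = 0.0256). Replicate 4 was far above the others, and without it the log2 difference was 0.49 ± 0.26 (edgeR adjusted p = 0.137), and omitting normoxia ABT-263 replicate 1 or 3 also lost the call. It was lost as well without the 3 libraries with conflicting labels (0.85 ± 0.35, edgeR adjusted p = 0.0704) and with treatment read from the tag (0.72, 0.0796).

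Of the other inhibitors, Timp3 passed with ABT-263 alone. Timp2, the inhibitor with the highest control level per length, held 384, 447, 384, 411 and 500 CPM in controls and 322, 393 and 458 CPM (lowest, median, highest) in hypoxia with vehicle, and its log2 differences were -0.11 ± 0.10 with vehicle and -0.05 ± 0.10 with ABT-263 (edgeR adjusted p = 0.462 and 0.731). Timp3, which stays bound to the matrix, held 394, 563, 406, 480 and 480 CPM in controls and 470, 515 and 598 CPM in hypoxia with vehicle (0.18 ± 0.11, edgeR adjusted p = 0.229). With ABT-263 Timp3 rose by 0.29 ± 0.11 on the log2 scale (edgeR adjusted p = 0.0346), with a lowest and median library of 351 and 494 CPM in normoxia and a lowest, median and highest of 507, 554 and 689 CPM in hypoxia. The highest normoxia library lay above the lowest hypoxia library. Timp3 lost the call without normoxia ABT-263 replicate 2 or hypoxia ABT-263 replicate 4 or 5 (edgeR adjusted p = 0.0581 to 0.0920), with treatment read from the tag (0.28, 0.0580) and without normoxia ABT-263 replicates 2 and 6 (0.18, 0.170). Timp4 lay at 4.52, 5.02, 4.07, 2.66 and 3.51 CPM in controls and passed in neither comparison (0.36 ± 0.22 with vehicle and -0.26 ± 0.22 with ABT-263, edgeR adjusted p = 0.234 and 0.357). The ABT-263 value of Timp4 ran from -0.44 to -0.14 when single libraries were left out, the ends without replicate 2 of hypoxia and replicate 2 of normoxia, both with ABT-263, and was 0.011 without normoxia ABT-263 replicates 2 and 6. Timp3 overlaps Syn3 and Timp4 overlaps Syn2, each on the opposite strand.

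The lists of genes that work beside these enzymes are described by their counts, to be read against the 26.3% of all tested genes that passed with vehicle and the 39.2% that passed with ABT-263. Of 16 tested matrix substrates 6 rose and 1 fell, among them Eln, which encodes elastin (1.62 ± 0.24 on the log2 scale), and the versican-binding link protein Hapln1 (2.01 ± 0.26). Of 13 tested regulators of protease activation 5 rose and 1 fell: Plau, the urokinase that activates plasminogen, rose by 0.43 ± 0.11 on the log2 scale, while Reck, a membrane inhibitor of metalloproteinases, fell by 0.25. Of the 7 ADAMTS-like proteins, which lack the protease domain, 2 rose and 1 fell, led by Adamtsl2 (1.06 ± 0.19). Of 12 membrane ADAM proteases 5 rose and none fell, and of 15 other matrix and serine proteases 2 rose, with Ctsk, a collagen-cutting cathepsin, at 1.04 ± 0.11, and 1 fell. With ABT-263, 10 of the substrates rose and none fell, and the counts of risen and fallen genes in the other lists were 6 and 3, 2 and 2, 5 and 3, and 6 and 1 in the order above.

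No member passed for ABT-263 within either oxygen condition. In normoxia no member passed (edgeR, 0 of 36, against 0.535% of all genes tested), also by DESeq2 and limma-voom, and 3 had an unadjusted p under 0.05. These were Adamts14 (-0.67 ± 0.22, edgeR adjusted p = 0.159), Mmp11 (-0.22 ± 0.08, 0.254) and Adamts7 (-0.46 ± 0.18, 0.258). Adamts14 held 2.74, 2.70, 5.14, 5.08 and 3.84 CPM in normoxia with vehicle and 1.73, 2.60 and 2.99 CPM (lowest, median, highest) with ABT-263, with overlap. Mmp11 held 40.6, 33.1, 38.4, 38.9 and 36.5 CPM with vehicle and 28.2, 32.3 and 36.9 CPM with ABT-263. Adamts7 was the 1 member of these whose groups did not overlap (1.92 to 2.81 against 1.45 to 1.89 CPM), where 2.12% of all genes did not overlap.

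In hypoxia no member passed for ABT-263 against vehicle by edgeR (0.301% of all genes did) or limma-voom, 1 passed by DESeq2, and 9 had an unadjusted p under 0.05. The smallest p belonged to Adamts4 (0.88 ± 0.23, edgeR adjusted p = 0.0951), whose libraries with vehicle reached 2.14 CPM and with ABT-263 began at 2.0 CPM. By DESeq2 its log2 fold change was 0.89 ± 0.27 (adjusted p = 0.0497), and with treatment read from the tag 0.55 ± 0.27 (edgeR adjusted p = 0.507). Mmp12 (0.47 ± 0.14, edgeR adjusted p = 0.144) and Adamts9 (0.41 ± 0.13, 0.165) followed, both higher in every ABT-263 library than in every vehicle library, and Adamts5 was lower in every one (-0.30 ± 0.11, 0.215). Among all genes 1.98% did not overlap in this comparison.

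Averaged over both oxygen conditions, Adamts4 was the 1 member that rose with ABT-263 (1 of 36 or 2.78%, against 2.54% of all genes tested, 1.23% higher and 1.31% lower). Its log2 fold change was 0.68 ± 0.18 (edgeR adjusted p = 0.0449), and without the 3 libraries with conflicting labels 0.72 ± 0.20 (edgeR adjusted p = 0.0689). The call was lost in 18 of the 22 fits that left out 1 library, every control among them, with edgeR adjusted p-values of 0.0502 to 0.114 and log2 fold changes of 0.58 to 0.74, and it held only without normoxia ABT-263 replicate 4, hypoxia vehicle replicate 4 or hypoxia ABT-263 replicate 2 or 3. Mmp9 came next (-0.58 ± 0.18, edgeR adjusted p = 0.0915).

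Whether the hypoxia effect differed between vehicle and ABT-263 was tested as an interaction. It passed for 0 of 36 members and 0% of all genes by edgeR, for no member by DESeq2 or limma-voom, and 3 members had an unadjusted p under 0.05. Mmp12 had the smallest p, with a log2 difference between both hypoxia effects of 0.69 ± 0.21 (edgeR adjusted p = 0.316). Adamts9 (0.41 ± 0.19, edgeR adjusted p = 0.504) and Adamts14 (0.65 ± 0.31, 0.534) followed. The median standard error of this difference over all genes was 0.16, against 0.11 for hypoxia with vehicle, so the interaction was measured with less precision than each hypoxia effect.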

How the data were processed

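Stranded mRNA libraries (TruSeq) were sequenced on a NextSeq 500, per the labels' protocols. The authors deposited 1 table of expected counts per gene made with RSEM, after Trimmomatic and STAR on GRCm38, per the submitters' processing notes, which give no versions. Reads that match more than 1 gene are shared out in expected counts, so similar genes can trade counts. Values were rounded here to whole numbers (7.92% were not whole).

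Groups were taken from the titles. No 2 libraries of a group matched within sampling noise (chi-square per gene 5.35 to 39.0). edgeR 4.0.16 (R 4.3.3, limma 3.58.1) was run on all 22 libraries in 1 fit of 4 groups with filterByExpr (minimum count 10), TMM scaling and a two-sided, robust quasi-likelihood F test. Benjamini-Hochberg adjustment was over 16638 genes, with 0.05 as threshold. Standard errors are the log2 fold change divided by the square root of F. CPM are counts on 1 common library total after TMM scaling. CPM per kb divides by the exon length of GENCODE M21, which held 54495 of the 54532 identifiers. Levels are compared between genes on that scale only. Promoter sequences are from RefSeq (GRCm38.p6). The code was tested on simulated data.

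Members named with values were those that passed in hypoxia with vehicle, up to 6 per other contrast (the 3 smallest p where none passed) and all Timp genes. Other members were named by role, and the ratios of Adamts1 to Adamts5 and Mmp2 to Mmp9 were chosen after their values were seen. Members and lists were chosen with earlier results of these data known. Alternatives were DESeq2 1.42.0, limma-voom, other scaling and low-count filters, fits of the compared groups alone, other readings of the conflicting labels and the omission of libraries. Normoxia ABT-263 replicates 2 and 6, left out together in 1 alternative, have no conflicting labels. Their summed levels of neutrophil markers, 572 and 451 CPM, were the highest of all libraries. Some genes of the lists are not reported here.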

Additional observations from a re-analysis of the deposited data

Results flagged for a closer look

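In 12 of 144 sets of a tested member in 1 group, a single library stood further from the others than Dixon's 95% limit allows, and chance alone gives about 1 in 20 such sets. The 12 fell in 8 libraries. In replicate 4 of hypoxia with ABT-263, Mmp2 was 193 CPM (others 90.1 to 100) and Timp1 was 33.5 CPM (others 10.2 to 15.3). In replicate 1 of hypoxia with vehicle, Mmp9 was 14.9 CPM (others 5.12 to 6.74) and Adamts6 was 9.95 CPM (others 4.39 to 6.43). In replicate 6 of that group, Adamts17 was 4.48 CPM (others 6.87 to 8.04) and Mmp17 was 1.52 CPM (others 2.88 to 3.63). In replicate 3 of hypoxia with ABT-263, Adamts20 was 2.13 CPM (others 0.695 to 0.865) and Mmp17 was 2.29 CPM (others 3.55 to 3.68). Mmp27 was 1.73 CPM in replicate 5 of that group (others 0.793 to 0.956). In normoxia with ABT-263, Adamts6 was 4.64 CPM in replicate 2 (others 2.76 to 3.44) and Adamts17 was 2.97 CPM in replicate 4 (others 4.93 to 6.0). In normoxia with vehicle, Adamts6 was 5.71 CPM in replicate 3 (others 3.77 to 4.24). Adamts6 appears in 3 of the 4 groups.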

How the results depend on the processing

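No paired analysis was possible because the replicate numbers here only count samples, and no label pairs them. Of 30 results that passed, none changed direction under any alternative or single omission: 265 of 299 values under alternatives and 579 of 660 under single omissions still passed. The number of members that passed was 8 to 12 for hypoxia with vehicle (10 in the report) and 13 to 20 for hypoxia with ABT-263 (19 in the report), where reading treatment from the tag gave 13. Leaving out 1 library at a time gave 7 to 12, 13 to 19 (13 without replicate 4 of hypoxia with ABT-263), 0 to 0 for ABT-263 in normoxia, in hypoxia and for the interaction, and 0 to 1 for ABT-263 averaged over oxygen. ABT-263 in hypoxia gave 1 member (Adamts4) with DESeq2 and 1 without normoxia ABT-263 replicates 2 and 6, against 0. ABT-263 averaged over oxygen gave 2 with DESeq2 and 0 with limma-voom, library totals only, no low-count filter, without the 3 libraries with conflicting labels, with treatment read from the tag and without normoxia ABT-263 replicates 2 and 6, against 1. With values that did not pass, Timp4 in hypoxia with ABT-263 turned from -0.26 to 0.011 without normoxia ABT-263 replicates 2 and 6, and Timp2 (-0.05) ran from -0.088 to 0.0049 when single libraries were left out, the last without hypoxia ABT-263 replicate 3. The cause of these differences was not tested. Under 10 alternatives Timp1 with vehicle lost its call in 5. The depth gave no test of 9 members.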
